A study of Mus musculus with 12 samples.

Results

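The 10 enzymes described here prepare or attach the head groups of membrane phospholipids. *Chka*, *Pcyt1a* and *Chpt1* act for choline, *Etnk1* and *Pcyt2* for ethanolamine, and *Cept1* for both. *Ptdss1* and *Ptdss2* act for serine, *Pgs1* for glycerol and *Cdipt* for inositol. They were chosen by gene symbol, and all 10 were found among the 23282 entries of the count data. Their mRNA was measured in the skin of 5 AD and 7 HF + AD mice (the latter labelled AD+OB), with 1 library per mouse. All 12 were wild-type male C57BL/6J mice obtained at 5 weeks of age, and AD-like lesions were induced in both groups with 0.5% DNCB (2,4-dinitrochlorobenzene, a contact sensitizer), applied 3 times a week for 6 weeks. The AD mice received standard chow. The HF + AD mice received a diet with 60% of its calories from fat, begun 4 weeks before DNCB and given for 10 weeks in all. Both groups thus carried DNCB-induced lesions and were fed different diets. The study also reports higher body weight and more severe skin thickening in the HF + AD mice. For its RNA data it gives 7 AD mice in 1 legend and 5 in others, and 5 AD libraries were available. Neither sham mice nor mice on the high-fat diet without DNCB were analysed here.

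Phosphatidylcholine and phosphatidylethanolamine are the most abundant phospholipids of mammalian membranes. In the CDP-choline and CDP-ethanolamine (Kennedy) pathways, a kinase phosphorylates the free base, a cytidylyl transferase couples it to CMP, and a phosphotransferase moves the phospho-base onto diacylglycerol. Phosphatidylserine is then made by exchanging the base of a finished phospholipid for serine, whereas the inositol and glycerol head groups are added to CDP-diacylglycerol. In epidermis, keratinocyte phospholipids are broken down during cornification to release fatty acids for the permeability barrier.

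The count data hold reads of the 3′ ends of mRNA, and between 9746937 and 13462434 reads were counted per mouse. A count of 0 would allow 3 counts, or at most 0.308 CPM (counts scaled to the same library total) in a library, and the lowest count of any of the enzymes was 51. Levels are given as CPM scaled by edgeR's TMM factors, or as log2(CPM + 1), and they compare the same gene between mice, not different genes. The number of genes with at least 1 read was 13100 to 15063 in AD and 15522 to 16677 in HF + AD mice, without overlap. Reads per mouse also differed by group, with overlap. They were 9746937 to 11688979 (median 11111566) in AD and 10726845 to 13462434 (median 12398847) in HF + AD mice. The part of these differences in the results was not tested. Of 11 lists of skin cell markers, defining genes of keratinocytes, hair shaft, sebocytes, fibroblasts and muscle were detected, and no marker looked for in the data was at 0 in every library (the T cell gene *Trac* is not listed). Of all 14163 genes tested between the groups, 4.43% were higher and 4.77% lower in the HF + AD group at an adjusted p under 0.05. Among basal and suprabasal keratinocyte markers 3 of 8 were higher in the HF + AD group (summed level 3654 to 6400 CPM in AD and 6165 to 11008 CPM in HF + AD mice). Of the hair shaft markers 3 of 10 were higher (2847 to 5636 and 4164 to 6933 CPM), and 2 of 8 endothelial markers were higher (71.0 to 131 and 79.4 to 145 CPM). In contrast, 3 of 8 skeletal muscle markers were lower (1518 to 3420 and 874 to 2160 CPM), and of 8 sebocyte markers 1 was higher and 1 lower (2227 to 3652 and 1826 to 3016 CPM). In the other 6 lists no marker passed edgeR's adjusted threshold, although 7 of 43 had an unadjusted p under 0.05 (25.1% of all genes had) and DESeq2 called 2, limma-trend 0 and limma voom 0. In whole skin, fewer cells of a type and less RNA per cell cannot be told apart, and the part of these cell types in the results below was not tested.

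Of the 10 head group enzymes, 1 passed the test across all genes. *Etnk1*, the ethanolamine kinase, was lower in the HF + AD than in the AD group, by a log2 fold change of −0.51 (standard error, SE, 0.15), that is at 0.701 of the AD level. None was higher at an adjusted p under 0.05 by edgeR's quasi-likelihood test, nor at an unadjusted p under 0.05, nor by DESeq2, limma-trend or limma voom. Over all 14163 genes tested, 9.20% passed the adjusted threshold (4.43% higher and 4.77% lower), so that 1 of 10 is a share near the background and no result about the group of enzymes. At an unadjusted p under 0.05 there were 2 enzymes, *Etnk1* and *Chpt1*, both lower, against 25.1% of all genes (12.8% lower). The change was positive for 4 enzymes and negative for 6, with a median of −0.044, where the median over all genes tested was 0.023. For none of the 10 were the groups apart, that is without overlap, as they were for 5.46% of all genes. All 10 passed the filter on low counts.

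**Figure D1:**
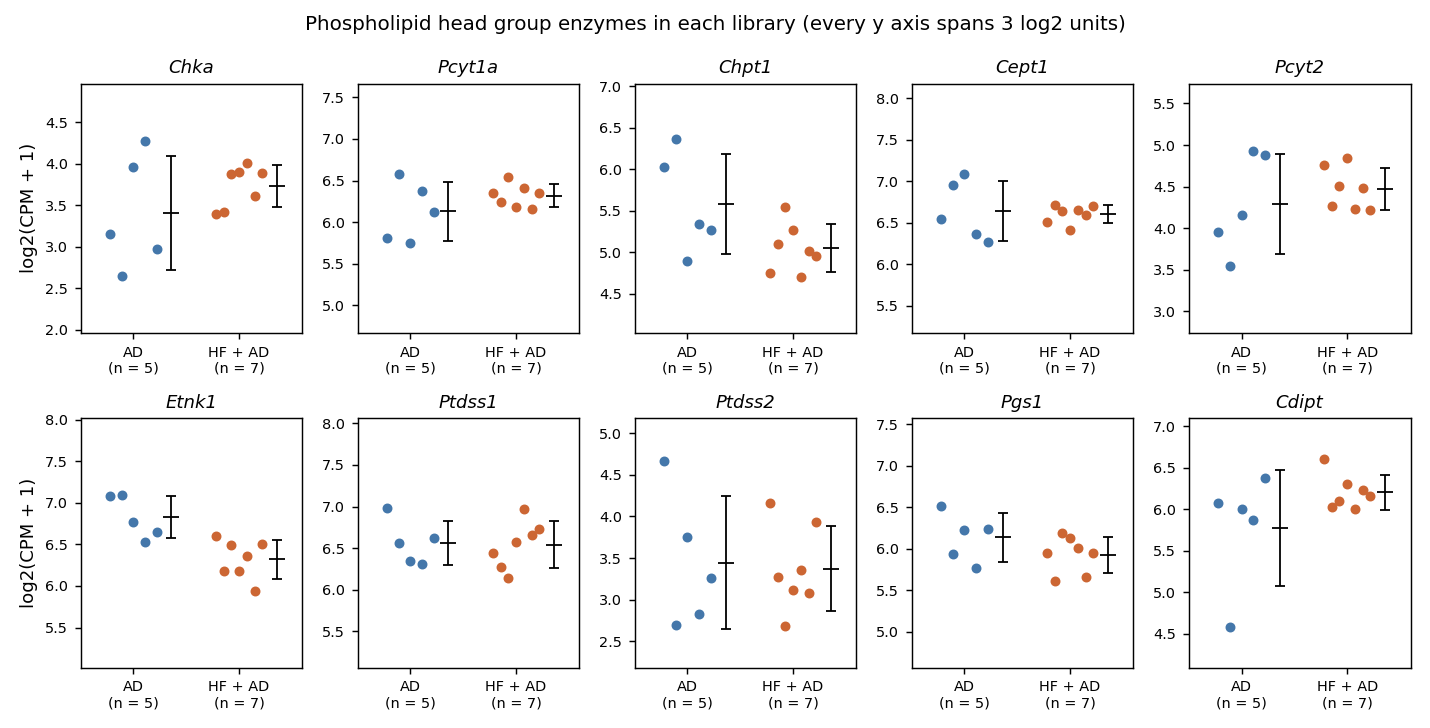
Level of the 10 phospholipid head group enzymes as log2(CPM + 1) on the y axis, with 1 point per mouse (blue, 5 AD; orange, 7 HF + AD) and the mean ± SD beside the points. For *Etnk1*, 6 of the 7 HF + AD mice lie below all AD mice; the groups overlap for all 10 enzymes.

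**Figure D2:**
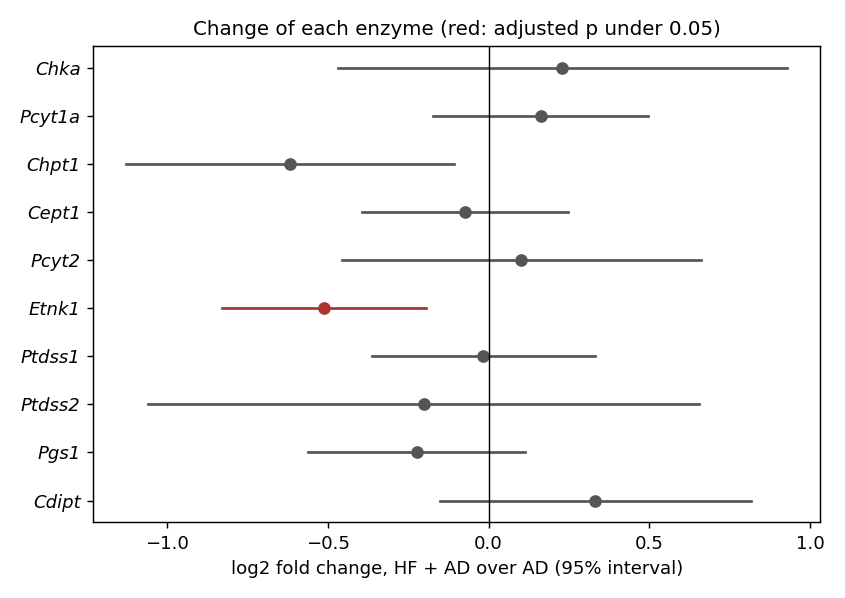
Log2 fold change of each enzyme in the HF + AD over the AD group (x axis), with the 95% interval from edgeR's quasi-likelihood fit as a line. *Etnk1* (−0.51, red) has an adjusted p under 0.05, and the interval of *Chpt1* (−0.62) also lies below 0.

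*Etnk1* phosphorylates ethanolamine in the first step of the CDP-ethanolamine pathway. It lies on chromosome 6 from 143167221 to 143232307 on the plus strand of GRCm38. Its level was 135, 135, 108, 91.7 and 99.7 CPM in AD mice 1 to 5, and in the HF + AD group it ranged from 60.4 to 95.7 CPM with a median of 80.9 CPM. Of the 7 HF + AD mice, 6 lay below every AD mouse, and only HF + AD mouse 1 (95.7 CPM) lay within the AD range, above AD mouse 4. The groups thus overlapped by 1 mouse. As log2(CPM + 1), AD mice averaged 6.83 ± 0.25 (SD, n = 5) and HF + AD mice 6.32 ± 0.23 (SD, n = 7) (p = 0.00631, two-sided, from an exact permutation of the mice). In the fit across all genes the 95% interval of the log2 fold change was −0.83 to −0.20, with an adjusted p of 0.0421 from edgeR.

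The call of *Etnk1* lay close to the threshold. Its direction was the same in 21 alternatives, with log2 fold changes between −0.58 and −0.41, but the adjusted p was under 0.05 in 9 of them and ranged from 0.0165 to 0.135. Without AD mouse 1 the adjusted p from edgeR was 0.0782 (log2 fold change −0.44), without AD mouse 2 it was 0.102 (−0.44), and without AD mouse 3 it was 0.0550 (−0.53). It was 0.0852 without HF + AD mouse 2 (−0.49), 0.0816 without mouse 4 (−0.49), 0.0516 without mouse 5 (−0.52) and 0.0792 without mouse 6 (−0.46). An antisense gene, *1700126G02Rik*, shares 201 exonic bases with *Etnk1*, and whether reads were counted by strand is not given in the sources used here.

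*Pcyt2*, the cytidylyl transferase that follows *Etnk1* in the pathway and is its rate-limiting enzyme, did not pass the test. Its level was 14.5, 10.7, 16.9, 29.6 and 28.5 CPM in AD mice 1 to 5 and 17.6 to 27.8 CPM (median 21.3) in the HF + AD mice. All HF + AD values lay inside the AD range. Its log2 fold change of 0.10 had a 95% interval of −0.46 to 0.66 (edgeR adjusted p = 0.853), which reaches nearly to the −0.51 of *Etnk1* on the lower side, and it turned to −0.055 without AD mouse 2.

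The last step for choline is carried out by *Chpt1*, which uses CDP-choline, and *Cept1*, which uses both CDP-choline and CDP-ethanolamine. *Chpt1* (chromosome 10, 88452745 to 88504073, minus strand) was 64.4, 81.1, 28.7, 39.5 and 37.5 CPM in AD mice 1 to 5, and 25.02 to 45.7 CPM with a median of 31.5 CPM in the HF + AD group. AD mice 1 and 2 were high, while the other AD mice lay within the HF + AD range, and 2 of 7 HF + AD mice lay below all AD mice. As log2(CPM + 1), the groups averaged 5.58 ± 0.60 (SD, n = 5) and 5.05 ± 0.29 (SD, n = 7), respectively (p = 0.0694, exact permutation, two-sided). Its change of −0.62 on the log2 scale (SE 0.24, 95% interval −1.13 to −0.11) had the largest size among the 10 enzymes but missed the adjusted threshold (unadjusted p = 0.0204, edgeR adjusted p = 0.117). It was −0.38 without AD mouse 2 (adjusted p = 0.336) and −0.34 with limma voom and sample quality weights, and its adjusted p never fell under 0.0536 nor exceeded 0.355 in 21 alternatives. On the opposite strand, *Sycp3* shares 660 exonic bases with *Chpt1*, and 87 to 443 reads per mouse were counted on it. *Cept1* shares more, 771 exonic bases with *Dennd2d* (258 to 1022 reads per mouse). Of the 10 enzymes, only *Pcyt2* and *Ptdss2* had no exonic overlap with another gene.

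For *Cept1* the AD mice held 75.95 to 135 CPM (median 92.5) and the HF + AD mice 84.2 to 104 CPM (median 99.3). The HF + AD values lay within the AD range. The log2 fold change was −0.072, with a 95% interval of −0.39 to 0.25 (edgeR adjusted p = 0.816), so that a fall as large as the −0.62 of *Chpt1* lies outside it. The ratio of *Cept1* to *Chpt1* within a library nevertheless did not differ beyond its spread. Its log2 value was 1.07 ± 0.67 (SD, n = 5) in AD and 1.56 ± 0.32 (SD, n = 7) in HF + AD mice (p = 0.111, exact permutation, two-sided). Without AD mouse 3, which held the highest ratio at 2.19, the difference of 0.49 became 0.77 (exact permutation p = 0.00606). This fit had the largest difference and the lowest p of the 12 that omitted 1 mouse. Across these 12, the difference ranged from 0.35 to 0.77 and the exact permutation p from 0.00606 to 0.2545.

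The sequences around the starts of *Etnk1* and *Chpt1*, the enzymes with an unadjusted p under 0.05, are shown so that these promoters can be compared. Both are rich in G and C (73.7% and 75.3% of 300 bases). Each window spans an annotated start in RefSeq (GRCm38.p6) and is written 5′ to 3′, for *Etnk1* at chr6:143166980-143167279 on the plus strand and for *Chpt1* at chr10:88503921-88504220 on the minus strand. Capitals mark the GC box GGGCGG or its reverse complement.

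Etnk1: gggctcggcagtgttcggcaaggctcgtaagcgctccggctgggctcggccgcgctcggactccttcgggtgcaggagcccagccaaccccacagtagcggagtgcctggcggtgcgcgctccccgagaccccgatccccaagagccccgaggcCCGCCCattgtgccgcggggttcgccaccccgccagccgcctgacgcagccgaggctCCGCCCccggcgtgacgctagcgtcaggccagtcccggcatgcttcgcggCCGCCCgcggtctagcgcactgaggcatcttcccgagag

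Chpt1: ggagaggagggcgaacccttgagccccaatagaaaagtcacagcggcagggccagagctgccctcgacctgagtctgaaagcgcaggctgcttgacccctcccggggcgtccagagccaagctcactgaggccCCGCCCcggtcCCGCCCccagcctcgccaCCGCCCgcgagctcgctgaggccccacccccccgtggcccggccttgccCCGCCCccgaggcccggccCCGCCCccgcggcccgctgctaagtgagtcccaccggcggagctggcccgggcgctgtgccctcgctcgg

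The GC box occurred 3 times in the *Etnk1* window and 5 times in the *Chpt1* window. RefSeq promoters were matched for 7 of the 10 enzymes, and all 7 held at least 1 GC box on either strand. *Chka*, *Pcyt1a*, *Cept1*, *Ptdss2* and *Pgs1* were among them. These letters are therefore shared by *Etnk1* and by enzymes that did not pass the test. Of 27025 gene symbols with such windows, 38.2% held a GC box. These symbols were not limited to genes tested in skin, so this and the shares below are no like-for-like background. CCAAT was found in *Chka*, *Chpt1* and *Cept1* (41.1% of all symbols), CCGGAAG in *Pcyt1a*, *Ptdss2* and *Pgs1* (9.93%), and TCACCCCAC, the core of a sterol regulatory element, in *Pcyt1a* (0.614%). CACGTG (8.09% of all symbols) and TATAAA (15.7%) were found in none of the 7. Both strands were searched for these 6 motifs, which do not contain one another, and a match is a description of letters only.

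The first steps for choline did not pass the test. *Chka*, choline kinase alpha, was 7.90, 5.28, 14.5, 18.3 and 6.88 CPM in AD mice 1 to 5 and 9.48 to 15.1 CPM (median 13.7) in the HF + AD group. AD mice 1, 2 and 5 lay below every HF + AD mouse, whereas AD mouse 4 lay above every one of them and AD mouse 3 among the highest, so that the groups overlapped. Its log2 fold change was 0.23 (95% interval −0.47 to 0.93, edgeR adjusted p = 0.722). *Pcyt1a*, the cytidylyl transferase that limits the rate of phosphatidylcholine synthesis, was 55.1, 94.7, 52.8, 82.1 and 68.8 CPM in AD mice 1 to 5 and 70.2 to 91.8 CPM (median 80.5) in the HF + AD mice. Again the HF + AD values lay inside the AD range. Its log2 fold change was 0.16 (95% interval −0.17 to 0.50, edgeR adjusted p = 0.577), and the interval leaves out a rise above 1.41 times.

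Ratios were taken within each library, as ratios of (CPM + 1), for 4 pairs of enzymes with like roles. The ratio of the choline kinase *Chka* to the ethanolamine kinase *Etnk1* had a log2 value of −3.93, −4.44, −2.81, −2.26 and −3.68 in AD mice 1 to 5 and between −3.21 and −2.28 (median −2.62) in the HF + AD group. AD mice 1, 2 and 5 were below all HF + AD mice, and AD mouse 4 was above all of them. The mean difference, HF + AD minus AD, was 0.83, from −3.42 ± 0.88 (SD, n = 5) to −2.59 ± 0.32 (SD, n = 7), with p = 0.0417 by a two-sided exact permutation test and 0.167 after Benjamini–Hochberg adjustment over the 4 pairs. It therefore did not hold after the correction, and the exact permutation p was 0.149 on ranks, 0.0909 without AD mouse 1, 0.109 without AD mouse 2 and 0.0758 without AD mouse 5. The difference was 0.98 (exact permutation p = 0.0303) without AD mouse 3 and 1.12 (p = 0.00606) without AD mouse 4. Without 1 HF + AD mouse the exact permutation p lay between 0.0346 and 0.0844, above 0.05 for 6 of the 7.

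The ratio of *Pcyt1a* to *Pcyt2* differed by 0.012 on the log2 scale, with means of 1.83 ± 0.71 (SD, n = 5) and 1.84 ± 0.32 (SD, n = 7), p = 0.967 by exact permutation. That of *Ptdss1* to *Ptdss2* differed by 0.053, with means of 3.12 ± 0.65 (SD, n = 5) and 3.17 ± 0.50 (SD, n = 7), p = 0.870 by the same exact test. Both differences are far smaller than the SD within either group, and both changed sign when some single mice were left out.

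**Figure D3:**
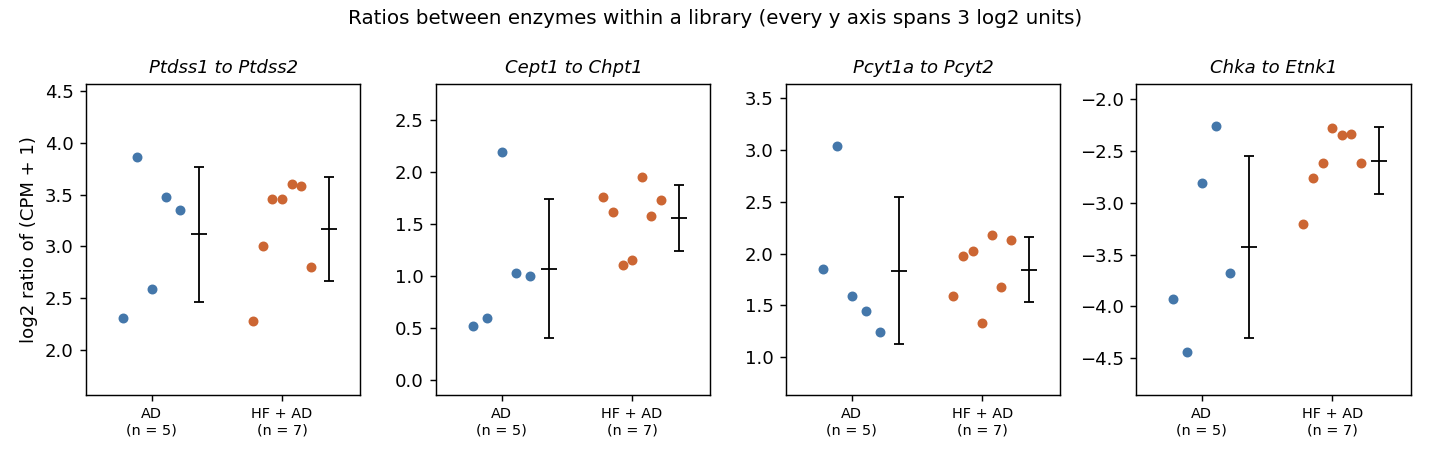
Log2 ratio of (CPM + 1) between enzymes of like role within each library (y axis), 1 point per mouse (blue, 5 AD; orange, 7 HF + AD), with the mean ± SD beside the points. The ratio of *Chka* to *Etnk1* averages −3.42 in the AD and −2.59 in the HF + AD group with overlapping values, and the pairs *Pcyt1a* to *Pcyt2* and *Ptdss1* to *Ptdss2* have nearly equal means.

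Serine enters phospholipids through 2 base-exchange enzymes: *Ptdss1* replaces the choline of phosphatidylcholine and *Ptdss2* the ethanolamine of phosphatidylethanolamine. *Ptdss1* ranged from 78.0 to 125 CPM (median 93.3) in the AD and from 69.6 to 124 CPM (median 94.2) in the HF + AD mice. The ranges were nearly the same. For this gene the log2 fold change was −0.016 (95% interval −0.36 to 0.33, edgeR adjusted p = 0.968), and its sign changed in 7 of 21 alternatives. *Ptdss2* was 24.5, 5.49, 12.5, 6.10 and 8.60 CPM in AD mice 1 to 5 and 5.44 to 16.96 CPM (median 8.69) in the HF + AD group. AD mouse 1 stood highest of all 12, and the coefficient of variation was 68.2% in the AD and 41.3% in the HF + AD group, the widest among the 10 enzymes. Its log2 fold change of −0.20 had a wide 95% interval of −1.06 to 0.65 (edgeR adjusted p = 0.808) and was 0.29 without AD mouse 1. The interval runs from 0.480 to 1.57 times the AD level.

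*Pgs1* makes phosphatidylglycerophosphate, the first committed step toward phosphatidylglycerol and the mitochondrial lipid cardiolipin. It was 90.8, 60.4, 73.6, 53.5 and 74.7 CPM in AD mice 1 to 5 and 48.1 to 71.7 CPM (median 60.9) in the HF + AD mice, 2 of which lay below all AD mice. The change in log2 units was −0.22 (95% interval −0.56 to 0.11, edgeR adjusted p = 0.421) and stayed negative in all 21 alternatives, between −0.45 (with the GC correction described below) and −0.11 (without AD mouse 1). *Cdipt* transfers inositol onto CDP-diacylglycerol to form phosphatidylinositol, the source of the phosphoinositides. It was 66.3, 22.9, 62.8, 57.2 and 82.0 CPM in AD mice 1 to 5 and 62.9 to 96.3 CPM (median 70.5) in the HF + AD group. AD mouse 2 was far below all others, and 1 HF + AD mouse lay above all AD mice. The log2 fold change of 0.33 (95% interval −0.15 to 0.81, edgeR adjusted p = 0.398) was 0.13 without AD mouse 2.

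The AD mice varied more among themselves than the HF + AD mice. For 9 of the 10 enzymes, *Ptdss1* being the exception, the SD of log2(CPM + 1) was larger in the AD group, with a median over the enzymes of 0.480 against 0.243. The same held for 78.6% of all genes tested, with medians of 0.529 and 0.329, so that it is not particular to these enzymes. The wider spread stands beside the lower number of genes detected in the AD libraries, whose part in it was not tested.

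The change of the enzymes tended to rise with the GC content of their transcripts, with exceptions. *Pgs1* is rich in GC (57.4%) but had a log2 fold change of −0.22, and *Cept1*, poor in GC (39.5%), had one of −0.072. *Chpt1* (37.9% GC), *Cept1* (39.5%) and *Etnk1* (43.6%) fall in the quintile of genes with the lowest GC content, where 7.56% of all genes were lower and 2.64% higher in the HF + AD group. *Pcyt2* (58.9%), *Pgs1* (57.4%) and *Cdipt* (57.6%) fall in the quintile with the highest, where 2.09% were lower and 6.86% higher. The median log2 fold change of all genes went from −0.088 in the lowest to 0.18 in the highest quintile. Over the 10 enzymes, which share their libraries, Pearson's r between GC content and log2 fold change was 0.624 and Spearman's rho 0.576, given as a description. With each library's trend along GC content taken out, the log2 fold change of *Etnk1* was −0.46 (edgeR adjusted p = 0.0659), that of *Chpt1* −0.53 (adjusted p = 0.185) and that of *Cdipt* 0.12 (adjusted p = 0.785). *Cept1* (0.039) and *Pcyt2* (−0.080) changed sign. The change of *Pgs1* went from −0.22 to −0.45 (unadjusted p = 0.181 and 0.0147, adjusted p = 0.421 and 0.0965), so that 3 enzymes in place of 2 had an unadjusted p under 0.05.

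**Figure D4:**
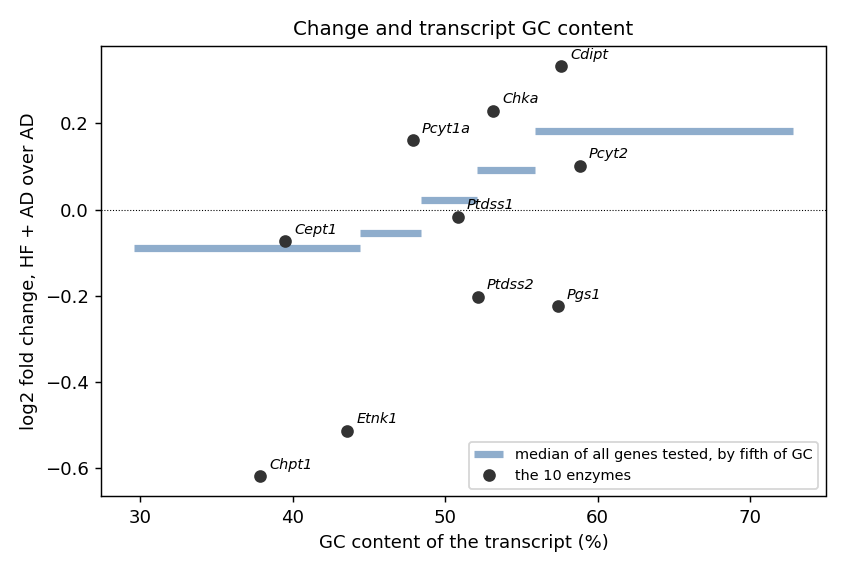
GC content of 1 transcript per gene (x axis, in percent) and log2 fold change of the HF + AD over the AD group (y axis) for the 10 enzymes (points), with the median of all genes tested in each quintile of GC content (blue bars). The median of all genes goes from −0.088 to 0.18, and *Chpt1* and *Etnk1* lie well below the bar of the lowest quintile.

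The genes whose level over the 12 libraries was most like that of *Etnk1*, among 13199 genes with a mean count of at least 20, were *Duoxa1* (Pearson's r = 0.930), a maturation factor of a dual oxidase, *4833439L19Rik* (0.924) and *Eif4h* (0.920), a translation initiation factor. Within the 7 HF + AD mice alone r was 0.934, 0.915 and 0.836, and within the 5 AD mice 0.781, 0.946 and 0.805. The 3 genes were picked by r over all 12 libraries, which include these mice. High values within a group are therefore no separate support. These values describe libraries that share depth and group, and none of the 3 genes passed the adjusted threshold (log2 fold changes −0.71, −0.41 and −0.40, adjusted p = 0.0586, 0.149 and 0.0604 from edgeR).

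Around the 10 enzymes, 6 lists of genes of the same pathways were examined, of which 46 of 51 genes had enough counts. At an adjusted p under 0.05, 3 were higher and 3 lower, that is 6 of 46, where 9.20% of all genes passed (4.43% higher and 4.77% lower). The median log2 fold change of the 46 was 0.038. With 4 to 12 genes tested per list, the counts below are descriptions and no result about a list. In the lysophospholipid acyltransferases, which exchange acyl chains of finished phospholipids, 1 of 7 tested genes was higher (4.43% of all genes were). This was *Lpgat1*, a lysophosphatidylglycerol acyltransferase, with 19.7 to 35.3 CPM in the AD and 36.5 to 63.0 CPM in the HF + AD mice, without overlap, where 2.90% of all genes did not overlap in this direction. Its log2 fold change was 0.81 (SE 0.19, edgeR adjusted p = 0.0165), and it passed in 20 of 21 alternatives. *Mboat1* (−0.39, adjusted p = 0.114) and *Mboat7*, an acyltransferase for lysophosphatidylinositol (0.40, adjusted p = 0.221), did not pass.

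Among 12 genes of inositol supply and of the kinases that phosphorylate phosphatidylinositol, 1 was higher and 1 lower, where 9.20% of all genes passed in either direction. *Pip5k1a*, which makes phosphatidylinositol 4,5-bisphosphate, was 117 to 166 CPM in the AD and 183 to 226 CPM in the HF + AD mice. The groups did not overlap, and the log2 fold change of 0.48 (SE 0.12, edgeR adjusted p = 0.0191) passed in 20 of 21 alternatives. *Pi4k2b*, a phosphatidylinositol 4-kinase, was 47.2 to 81.5 CPM in the AD and 20.3 to 43.8 CPM in the HF + AD mice, again without overlap (2.56% of all genes did not overlap in this direction). Its log2 fold change was −0.78 (SE 0.20, edgeR adjusted p = 0.0253). This call was lost in the fits that omitted AD mouse 2 (adjusted p = 0.0706), mouse 4 (0.0537) of the AD group, or mouse 2 (0.0525) or 4 (0.0518) of the HF + AD group. *Pi4k2a* (−0.59, adjusted p = 0.0604) and *Pikfyve* (−0.37, adjusted p = 0.207) did not pass.

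Of the 5 genes of serine supply, 1 was higher and 1 lower, beside 4.43% and 4.77% of all genes. *Psph*, which releases serine in the last step of its synthesis, had a log2 fold change of −0.69 (SE 0.18, edgeR adjusted p = 0.0252), with 74.95 to 138 CPM in the AD and 54.0 to 78.6 CPM in the HF + AD mice. The call ended when mouse 2 (adjusted p = 0.0726) or 3 (0.0655) of the AD group, or mouse 1 (0.0501) or 4 (0.0521) of the HF + AD group, was omitted, and with limma voom (0.0647). *Shmt2*, the mitochondrial enzyme that interconverts serine and glycine, was 7.87 to 27.5 CPM and 27.8 to 49.1 CPM, a log2 fold change of 0.94 (SE 0.27, edgeR adjusted p = 0.0368). It passed in 11 of 21 alternatives. Its adjusted p was 0.0875 with the GC correction described above and 0.0754 with limma voom. Among the fits that omitted 1 mouse it was above 0.05 for mouse 1 (0.0523), 2 (0.0511) or 4 (0.0637) of the AD group, and for mouse 1 (0.0797), 2 (0.0862), 4 (0.0683) or 6 (0.0554) of the HF + AD group. *Phgdh* (−0.45, adjusted p = 0.0781) and *Shmt1* (−0.45, adjusted p = 0.173) did not pass.

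In the list drawn up for phosphatidylcholine breakdown toward choline, 1 of 8 genes was lower, where 4.77% of all genes were. Membership of this list does not mean that each enzyme acts on products of phosphatidylcholine. *Gde1*, a glycerophosphodiester phosphodiesterase, had 145 to 220 CPM in the AD and 89.7 to 152 CPM in the HF + AD mice, and its log2 fold change of −0.53 (SE 0.16) lay at the threshold (edgeR adjusted p = 0.0498, 0.0200 to 0.114 over 21 alternatives). It passed in 6 of these, and among the fits without 1 mouse it passed only without HF + AD mouse 5. *Pld1*, phospholipase D1 (−0.60, adjusted p = 0.339), and *Gdpd3* (0.66, adjusted p = 0.0933) did not pass.

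No gene passed edgeR's adjusted threshold among the 10 tested of the 11 other head group enzymes. There 4 were lower at an unadjusted p under 0.05 (12.8% of all genes were), and DESeq2 called 2, limma-trend 1 and limma voom 1. *Cds1*, which makes the CDP-diacylglycerol used by *Cdipt*, was closest. It was 156 to 272 CPM in the AD and 123 to 216 CPM in the HF + AD mice, with a log2 fold change of −0.52 (SE 0.16, edgeR adjusted p = 0.0511) and adjusted p values from 0.0157 to 0.130 in 21 alternatives, 8 of them under 0.05. *Tamm41*, the CDP-diacylglycerol synthase of mitochondria, had a log2 fold change of −0.40 (adjusted p = 0.0879). Nor did any of the 4 tested choline transporter genes pass by edgeR, DESeq2 or limma, with 1 at an unadjusted p under 0.05 in edgeR. This was *Flvcr1*, listed under its earlier symbol *Mfsd7b*, whose log2 fold change was −0.59 (adjusted p = 0.155). *Slc44a3* (−1.58, adjusted p = 0.312) had at most 6.94 CPM in any mouse.

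**Figure D5:**
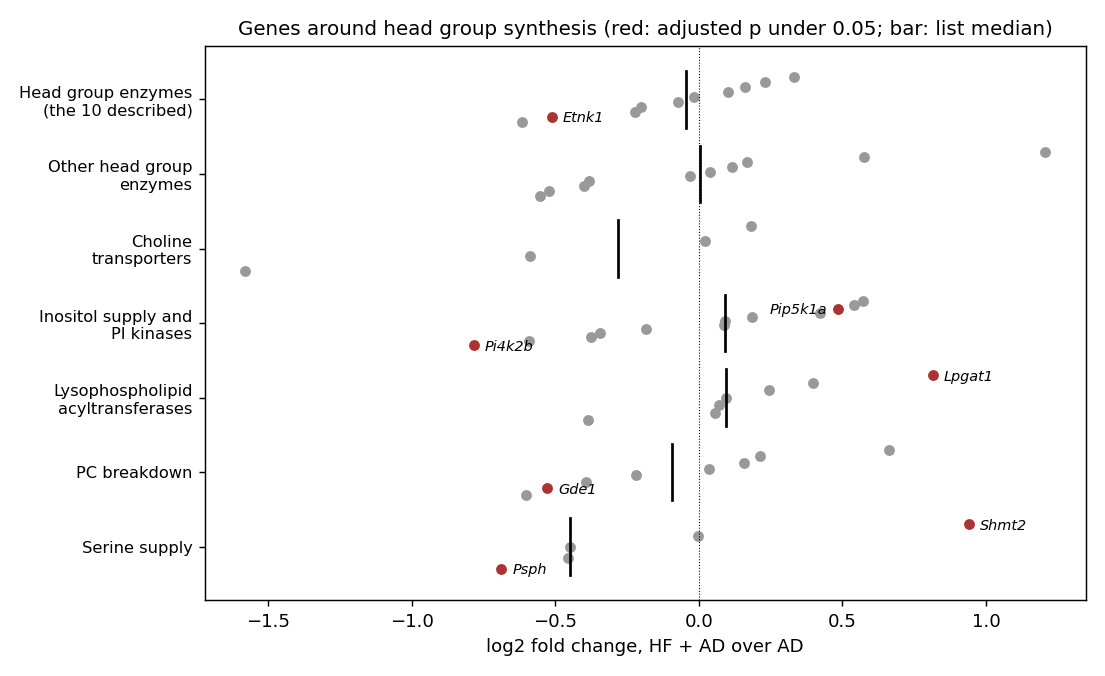
Log2 fold change of the HF + AD over the AD group (x axis) for the 10 head group enzymes and the tested genes of 6 lists around them, 1 point per gene, with the median of each list as a bar. Red points with a name passed the adjusted threshold of 0.05: *Lpgat1*, *Pip5k1a* and *Shmt2* to the right of 0 and *Etnk1*, *Pi4k2b*, *Gde1* and *Psph* to the left.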

How the data were processed

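Libraries of skin RNA (QuantSeq, 3′ ends) came from 5 mice of the AD and 7 of the HF + AD group, and groups were taken from the sample titles. The files deposited by the authors hold raw counts for each gene symbol, without normalization. The submitters' processing notes name Bowtie2, bedtools and mm10. Versions, the annotation and the handling of duplicate reads are not given in the sources used here. Each of the 23282 entries was kept on its own (35 symbols are listed more than once).

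The groups were compared with edgeR 4.0.16 in R 4.3.3 (TMM, filterByExpr, a quasi-likelihood fit on group alone, with p-values adjusted by Benjamini–Hochberg across 14163 genes and a threshold of 0.05). Standard errors and 95% intervals were derived from its F statistic. Single levels are log2(CPM + 1), and ratios and single levels were tested by two-sided exact permutation of the 12 mice, for which the smallest p is 0.00126. Positions came from GENCODE M21 on GRCm38, as did GC content (1 transcript per symbol, the longest protein-coding one where present; 96.2% of genes tested had a value). Alternatives were DESeq2's size factors, library totals, no filter, at least 10 counts in every mouse, DESeq2 1.42.0, limma 3.58.1 (limma-trend, and voom with sample quality weights), the replicate number as a block, the omission of each mouse in turn, other statistics for the ratios and, added after seeing the data, a correction for GC content in 20 bins. The steps were run on simulated data with the same dispersion for all genes and both groups. This setting lacks the wider spread of the AD group, so it does not show how the tests behave under that spread. Intervals cover counting and mouse-to-mouse error as modelled, and no molecular identifiers are described.

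The enzymes, the 6 pathway lists and the marker lists were chosen with earlier results of these data known. Genes named beside the 10 enzymes are, in each pathway list, those with an adjusted p under 0.05 and the 2 others with the lowest p, and the 3 genes most correlated with *Etnk1*. *Trac* and the overlapping genes fall outside this rule. The genes looked up under an earlier symbol were *Selenoi* (Ept1) and *Flvcr1* (Mfsd7b).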

Additional observations from a re-analysis of the deposited data

Results flagged for a closer look

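The level of *Cdipt* in AD mouse 2 stood apart from the other AD mice. Its log2(CPM + 1) was 4.58, and the gap to the next AD mouse was 0.715 of the group's range, above Dixon's 95% critical value of 0.71 for 5 samples. Chance flags about 1 in 20 groups, and the 10 enzymes and 4 ratios were each examined in both groups. Without this mouse the log2 fold change of *Cdipt* was 0.13 in place of 0.33 (adjusted p = 0.660 and 0.398 from edgeR).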

How the results depend on the processing

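The number of head group enzymes past the adjusted threshold, 1, became 0 with library totals alone, without a filter, with limma voom and sample quality weights, with the replicate block and with the GC correction chosen after seeing the data, and lay between 0 and 1 in the fits without 1 mouse. The number over all genes, 1303, was 2159 with DESeq2, 766 with limma voom, 183 with the replicate block and 639 to 1461 without 1 mouse. Of the calls, 48.1% were higher, 59.1% with library totals and 35.2% with the GC correction. The 6 calls in the pathway lists became 10 with DESeq2, 10 with the GC correction, 0 with the replicate block (13 of 46 at an unadjusted p under 0.05) and 2 to 8 without 1 mouse. The replicate numbers name different mice: same-numbered mice deviated together with correlations of −0.106 to 0.0724, and 1 of 5 AD mice correlated best with its own number, so that the block fit, on 10 mice, is no paired test. The difference in the ratio of *Chka* to *Etnk1* was 0.58 to 1.12 without 1 mouse and 3.26 in mean ranks (exact permutation p = 0.149). The ratio of *Cept1* to *Chpt1* differed by 0.35 to 0.77 without 1 mouse, that of *Ptdss1* to *Ptdss2* by −0.15 to 0.24 and that of *Pcyt1a* to *Pcyt2* by −0.14 to 0.31. With limma voom, the log2 fold changes of *Cept1* (0.086), *Pcyt2* (−0.14), *Ptdss1* (0.062) and *Ptdss2* (0.14) changed sign, as did *Ptdss1* with library totals (0.032) and *Cept1* (0.039) and *Pcyt2* (−0.080) with the GC correction. Without 1 mouse, the range of *Cept1* was −0.15 to 0.050, of *Pcyt2* −0.055 to 0.28, of *Ptdss1* −0.097 to 0.11 and of *Ptdss2* −0.38 to 0.29. The causes were not tested. Each of these enzymes stayed above the threshold in all fits.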
